A study of Mus musculus with 5 samples.

Results

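Bone marrow at 7 days after irradiation (DAI) was set against sham-irradiated marrow, gene by gene, on 1 array each. The 7 DAI marrow came from male BALB/c mice, an inbred strain, aged 7 to 8 weeks, which had received a single whole-body dose of 4 Gy of gamma-rays from a cobalt source. The sham marrow came from male BALB/c mice of the same age that were handled in the same way with no dose, and it stands for 0 DAI. Whole marrow was flushed from both tibias with no sorting, so every RNA is a mixture of all marrow cells. Cells were collected from several mice at each time, and whether an array holds the RNA of 1 mouse or of a pool is not clear from the study's description. The members are all genes with a probe of 1 gene symbol on the Illumina MouseWG-6 BeadChip, which gave 19057 genes in the series and 8256 genes with a 7 DAI to sham ratio. With 1 array per group there is no spread between replicates, no test was possible, and every ratio below compares those 2 arrays.

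Blood formation in the mouse marrow starts from a few stem cells and runs through fast-dividing precursors, which are far more sensitive to ionizing radiation than the mature cells they give rise to. B lymphocytes are made in the marrow, and precursor and mature B cells are both easily killed by radiation, whereas granulocytes are replaced quickly once surviving precursors divide again. A sublethal dose is therefore followed by a regrowth in which lineages return at different speeds. Because the marrow was measured in bulk, fewer cells of a type and less RNA per cell cannot be told apart in any of the values below.

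The values are the authors' background-subtracted and scaled bead intensities, called signals here, on a linear scale. Signals under a floor of 64 were raised to it, the brightest probe stood for its gene, and the log2 ratio of the 7 DAI signal to the sham signal was taken where at least 1 of the 2 exceeded the floor. A gene is called higher or lower at a log2 ratio of 1 or more, or of -1 or less, that is at 2-fold. Where only 1 of the 2 signals exceeded the floor the ratio is a bound, and it is given as at least that size. The mean signal was 535.7 on all 5 arrays of the series, and 41.4% of the genes exceeded the floor on the 7 DAI array as on the sham array. The 3 other arrays, at 3, 11 and 21 DAI, appear only beside results at 7 DAI, and their ratios share the sham array with it.

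At 7 DAI, 338 genes were higher, which is 4.09% of the 8256, and 281 genes were lower, which is 3.4%. The counts of higher and lower members in every gene list below stand beside these shares. Over all genes the median log2 ratio stood at 0.11, and 7.5% were past 2-fold either way. The higher genes were more numerous but the larger ratios lay on the lower side. The balance depended on the scaling, since scaling on the array median gave 225 higher and 362 lower genes. At 4-fold, 22 genes were higher and 46 lower, and at 16-fold 1 gene was higher and 9 were lower. Among the 7531 genes with both signals above the floor, 291 were higher (3.86%) and 224 lower (2.97%), or 6.84% either way. The 7 DAI signal was the highest of the 5 arrays in 271 of the 338 higher genes and the sham signal in 196 of the 281 lower genes, counts that follow in large part from the choice of these genes by the same ratio. When the average of 3, 11 and 21 DAI took the place of the sham signal, 129 of the 338 were still higher and 69 of the 281 still lower.

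**Figure D1:**
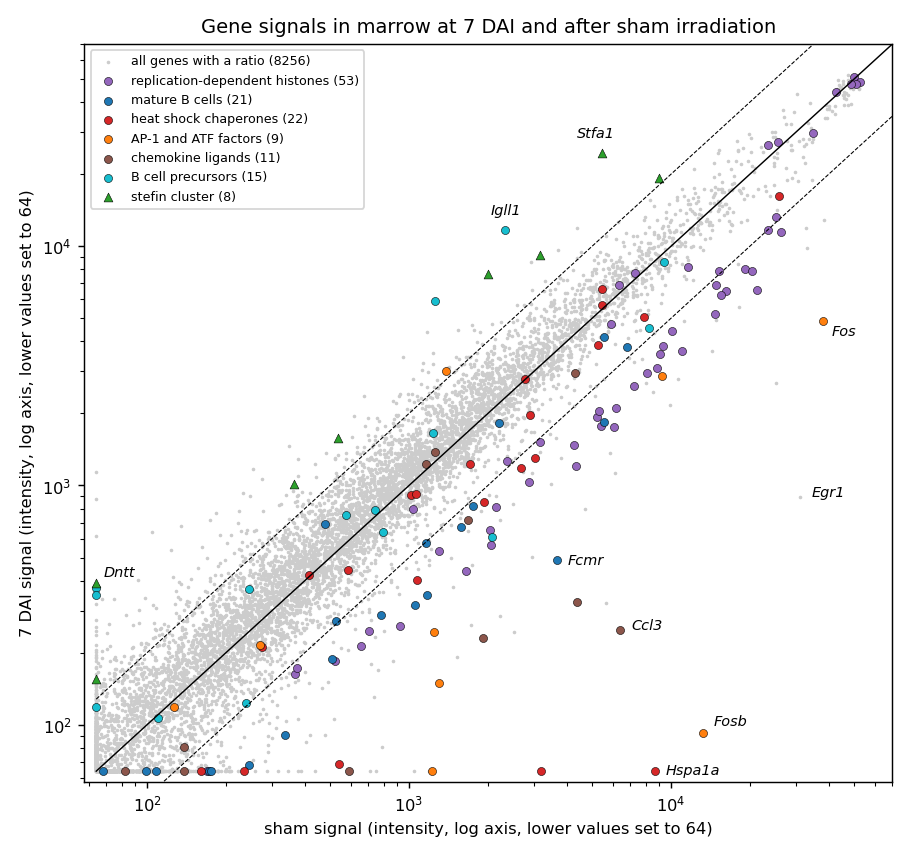
Signal of each gene in 7 DAI marrow (vertical) against sham marrow (horizontal), both as intensity on log axes with values under 64 set to 64. Solid line, equal signals. Dashed lines, 2-fold. Coloured points are members of 6 gene lists and triangles are the 8 measured genes of the stefin cluster. Fosb and Hspa1a lie farthest below the diagonal, and the triangles all lie above the upper dashed line.

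Immediate early genes, whose transcription starts within minutes of a stimulus and whose mRNAs decay fast, had many of the lowest ratios. The AP-1 transcription factor is a dimer of Fos and Jun proteins, and 6 of its 9 measured family genes were lower, against 3.4% of all genes, and 1 was higher, with a median log2 ratio of -2.35. Fosb, a Fos family subunit, had a signal of 92.0 at 7 DAI against 13195 in sham marrow, a log2 ratio of -7.16, the lowest ratio among genes with both signals above the floor. Fos was at 4860 at 7 DAI against 37943 in sham, or -2.96. Among the Jun genes, Jund was at 150 at 7 DAI against 1298 in sham (-3.11), Jun at 243 at 7 DAI against 1241 in sham (-2.35) and Junb at 2866 at 7 DAI against 9264 in sham (-1.69). Atf3, a stress-induced relative of the AP-1 factors, was under the floor at 28.0 at 7 DAI against 1223 in sham, at least 19.1-fold lower. The exception was Fosl2, a Fos family member, which stood at 3012 at 7 DAI against 1382 in sham and was higher by a log2 ratio of 1.12, but its other measured probe gave -0.53, so its direction depends on the probe.

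The zinc finger genes of the Egr and Klf families and other early genes gave the same picture for a smaller share of their members. Of 23 measured, 10 were lower and 2 higher, with a median of -0.74. Egr1 was at 893 at 7 DAI against 31194 in sham marrow, a log2 ratio of -5.13, and Egr2 at 18.6 at 7 DAI against 747 in sham, at least 11.7-fold lower. Klf2, which keeps T cells quiescent, was at 2680 at 7 DAI against 25149 in sham (-3.23) and Klf4, a factor of monocyte differentiation, at 285 at 7 DAI against 2233 in sham (-2.97). Their relatives Klf7 and Klf3 were higher, Klf7 at 2981 at 7 DAI against 1178 in sham (1.34) and Klf3 at 183 at 7 DAI against 79.3 in sham (1.21). The 3 measured probes of Klf7 lay between 0.50 and 1.34, so its call depends on the probe. The early gene Ier2, at 755 at 7 DAI against 643 in sham, was within 2-fold. Of 9 dual-specificity phosphatase genes, which end MAP kinase signalling, 3 were lower and 1 higher. Dusp2, Dusp5 and Dusp1 had log2 ratios of -2.55, -2.21 and -1.45. The higher one was Dusp7, at 409 at 7 DAI against 174 in sham (1.23). Of 7 genes of mRNA decay and the Btg family 2 were lower and none higher. Zfp36, which targets mRNAs with AU-rich elements for decay, was at 9795 at 7 DAI against 33148 in sham (-1.76), and the antiproliferative gene Btg2 at 246 at 7 DAI against 799 in sham (-1.70).

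Stress genes of the Gadd45, Polo-like kinase, Ddit and sestrin families were lower in 6 of 10 measured, against 3.4% of all genes. Of the 10, 1 was higher, and the median was -1.12. Plk2 was at 42.7 at 7 DAI against 709 in sham, at least 11.1-fold lower, and Plk3 at 262 at 7 DAI against 1722 in sham (-2.72). Gadd45b and Gadd45a were at log2 ratios of -1.40 and -1.20, and Gadd45g at -0.99 was just inside 2-fold. The other measured probes of Gadd45b and Gadd45g gave -0.71 and -1.23, so the calls of both depend on the probe. The Polo-like kinase of centriole duplication, Plk4, was at 359 at 7 DAI against 304 in sham. Over the 5 lists of early and stress genes together, 27 of 58 measured genes were lower and 5 higher. Against the average of 3, 11 and 21 DAI, 5 of the 27 were still lower by 2-fold and 7 lay above that average. The irradiated arrays differed among themselves as well, and Atf3, at 28.0 at 7 DAI, was at 1178 on the array of 3 DAI. Fosb, at 3277, 466 and 472 on the arrays of 3, 11 and 21 DAI, and Egr1, at 9247, 4544 and 2909, lay more than 2-fold below every other array at 7 DAI.

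Of the 27 lower early genes, 24 entered a search of promoter windows from the RefSeq table (GRCm38.p6). Windows on the chromosome that carries Egr1 were left out of this set, so Egr1 is not among the 24. The counts over all genes, and over all lower and higher genes, keep that chromosome. The 250 bases upstream of the start were searched on both strands for binding letters of factors known to switch on early genes. The full cAMP response element (CRE), TGACGTCA, was found in 3 of the 24, Plk2, Dusp1 and Btg2, and in 1.77% of all 27025 genes with a window. The CArG box of serum response factor was found in another 3, Egr2, Dusp5 and Zfp36, and in 1.62% of all genes. Among all genes with a ratio and a window, the CRE was present in 14 of 215 lower genes (6.51%), in 6 of 284 higher genes (2.11%) and in 217 of 6797 overall (3.19%). The CArG box was present in 8 of the lower (3.72%), 4 of the higher (1.41%) and 103 overall (1.52%). Matches of the AP-1 site, TGANTCA, were in 2 of the 24 early genes and in 7.82% of all genes, and in 19 of the lower (8.84%), 22 of the higher (7.75%) and 354 overall (5.21%). The shorter CRE core, TGACG, which the full CRE contains, was in 74 of the lower (34.4%), 82 of the higher (28.9%) and 2159 overall (31.8%). A match describes letters in a window and does not show that a factor was bound. The 6 upstream stretches are printed because they carry the CRE or CArG matches, in capitals, with the start site just after the last base. They lie at chr13:110394794-110395043, plus strand for Plk2, chr17:26508473-26508722, minus strand for Dusp1, chr1:134079156-134079405, minus strand for Btg2, chr10:67537619-67537868, plus strand for 1 of 5 Egr2 windows, chr19:53528895-53529144, plus strand for Dusp5 and chr7:28379229-28379478, minus strand for Zfp36.
Plk2: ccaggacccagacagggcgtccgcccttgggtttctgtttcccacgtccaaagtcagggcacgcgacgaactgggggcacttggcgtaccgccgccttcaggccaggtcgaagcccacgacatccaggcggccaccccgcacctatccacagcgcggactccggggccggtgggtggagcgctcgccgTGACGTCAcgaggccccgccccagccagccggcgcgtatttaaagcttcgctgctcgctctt
Dusp1: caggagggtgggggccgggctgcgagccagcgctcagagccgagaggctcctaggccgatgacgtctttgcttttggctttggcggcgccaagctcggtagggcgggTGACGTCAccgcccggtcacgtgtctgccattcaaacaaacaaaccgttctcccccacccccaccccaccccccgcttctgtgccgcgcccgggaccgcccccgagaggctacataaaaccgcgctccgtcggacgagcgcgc
Btg2: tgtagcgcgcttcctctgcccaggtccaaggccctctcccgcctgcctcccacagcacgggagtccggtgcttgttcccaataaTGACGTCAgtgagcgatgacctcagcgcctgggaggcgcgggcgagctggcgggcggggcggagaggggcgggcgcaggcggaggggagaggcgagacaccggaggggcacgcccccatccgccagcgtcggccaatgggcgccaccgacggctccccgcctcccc
Egr2: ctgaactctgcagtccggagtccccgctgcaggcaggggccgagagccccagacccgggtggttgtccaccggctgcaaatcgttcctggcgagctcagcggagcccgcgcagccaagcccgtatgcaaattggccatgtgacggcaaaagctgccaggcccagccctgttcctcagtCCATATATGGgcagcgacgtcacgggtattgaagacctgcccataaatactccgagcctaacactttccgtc
Dusp5: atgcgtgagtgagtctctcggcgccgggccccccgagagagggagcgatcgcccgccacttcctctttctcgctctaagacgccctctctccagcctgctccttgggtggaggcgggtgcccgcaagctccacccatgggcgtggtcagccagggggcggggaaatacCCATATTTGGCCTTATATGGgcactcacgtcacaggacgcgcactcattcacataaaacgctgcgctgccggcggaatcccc
Zfp36: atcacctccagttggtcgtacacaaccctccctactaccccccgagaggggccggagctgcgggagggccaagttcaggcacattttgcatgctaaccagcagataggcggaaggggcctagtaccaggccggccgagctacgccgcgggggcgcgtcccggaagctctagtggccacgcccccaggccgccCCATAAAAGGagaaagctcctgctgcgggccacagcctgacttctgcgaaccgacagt
In Dusp5 a pair of CArG boxes stand end to end, and the match nearest to the start begins 72 bases upstream of it, as in the printed Egr2 window. The CRE begins 62 bases upstream in Plk2, 143 in Dusp1 and 166 in Btg2.

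Heat shock chaperones, which hold or refold damaged proteins, were lower in 9 of 22 measured genes, against 3.4% of all genes, and higher in none. Their median was -0.59. The stress-inducible Hsp70 genes stood apart from the rest. Hspa1a was under the floor at 28.1 at 7 DAI against 8686 in sham marrow, at least 136-fold lower, and Hspa1b at 3.23 at 7 DAI against 3185 in sham, at least 49.8-fold lower. On the arrays of 3, 11 and 21 DAI, Hspa1a was at 1146, 915 and 272. The constitutive relative Hspa8 was within 2-fold, at 16265 at 7 DAI against 25748 in sham (-0.66), as was the mitochondrial Hspa9 at 6625 at 7 DAI against 5467 in sham. Between these extremes were Hspa4l, an Hsp110 family gene, at 68.4 at 7 DAI against 542 in sham (-2.99), the Hsp70 cochaperone Bag3 at 401 at 7 DAI against 1068 in sham (-1.41) and the cytosolic Hsp90 gene Hsp90aa1 at 1298 at 7 DAI against 3025 in sham (-1.22). The pair of inducible Hsp70 genes thus had the lowest ratios of the list. The 250 bases upstream of Hspa1a and Hspa1b, neighbours on chromosome 17, are shown because the pair had the lowest ratios of the list and because their sequences are so alike, with 247 of 250 bases identical (98.8%). They lie at chr17:34972157-34972406, minus strand for Hspa1a and chr17:34959239-34959488, minus strand for Hspa1b, and the capitals mark a heat shock element, searched as GAANNTTC on both strands.
Hspa1a: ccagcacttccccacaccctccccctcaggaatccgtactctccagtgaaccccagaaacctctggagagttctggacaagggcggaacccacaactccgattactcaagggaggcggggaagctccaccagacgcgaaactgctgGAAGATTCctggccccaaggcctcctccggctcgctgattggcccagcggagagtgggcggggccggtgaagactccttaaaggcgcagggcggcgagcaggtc
Hspa1b: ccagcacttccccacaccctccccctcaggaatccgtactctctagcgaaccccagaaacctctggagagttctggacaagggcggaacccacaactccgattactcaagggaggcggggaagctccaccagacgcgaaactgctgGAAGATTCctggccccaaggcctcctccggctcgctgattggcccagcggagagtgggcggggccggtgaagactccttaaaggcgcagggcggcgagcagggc
The element begins 104 bases upstream of both starts. It was found in 3 of the 8 lower chaperone genes with a window, the third being the small heat shock protein gene Hspb1, and in 7.73% of all genes. The mRNAs of the pair are near copies as well, so a probe may read both and their 2 values are not independent.

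The chemokine, cytokine and NF-kB feedback genes were lower in a part of their members, against 3.4% of all genes, and higher in none. Of 29 chemokine ligands, 18 were under the floor on both arrays. Of the 11 measured, 6 were lower, with a median of -1.11, and these include the platelet genes Pf4 and Ppbp. Ccl3 and Ccl4, attractants of monocytes and T cells made by activated leukocytes, were at 250 at 7 DAI against 6409 in sham marrow (-4.68) and at 325 at 7 DAI against 4378 in sham (-3.75). Cxcl2, which recruits neutrophils, was at 12.7 at 7 DAI against 589 in sham, at least 9.20-fold lower, whereas the stromal chemokine Cxcl12 that retains stem cells in the marrow was at 1382 at 7 DAI against 1252 in sham (0.14). Of 24 cytokine and NF-kB feedback genes, 9 were lower, with a median of -0.65. The lymphocyte activation antigen Cd69 was at 324 at 7 DAI against 5653 in sham (-4.13), the niacin receptor gene Hcar2 at 244 at 7 DAI against 2509 in sham (-3.36) and the cytokine gene Osm at 3665 at 7 DAI against 14393 in sham (-1.97). Nfkbiz and Tnfaip3, which tune NF-kB, were at log2 ratios of -2.56 and -1.90, but the NF-kB inhibitor gene Nfkbia at 4425 at 7 DAI against 4276 in sham (0.05) was within 2-fold. Tnf was at 221 at 7 DAI against 512 in sham (-1.21) and Il1b at 2206 at 7 DAI against 4088 in sham (-0.89). The signalling regulator gene Rgs1 was at 24.3 at 7 DAI against 1195 in sham, at least 18.7-fold lower, and Rgs2 at 84.4 at 7 DAI against 403 in sham (-2.25), while the other 6 measured RGS genes were within 2-fold. Endoplasmic reticulum stress genes were lower in 4 of 22, namely Ppp1r15a (-2.44), Hspa5 (-1.71), Ddit3 (-1.68) and Dnajb9 (-1.27), and higher in 1, Chac1 (1.30).

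**Figure D2:**
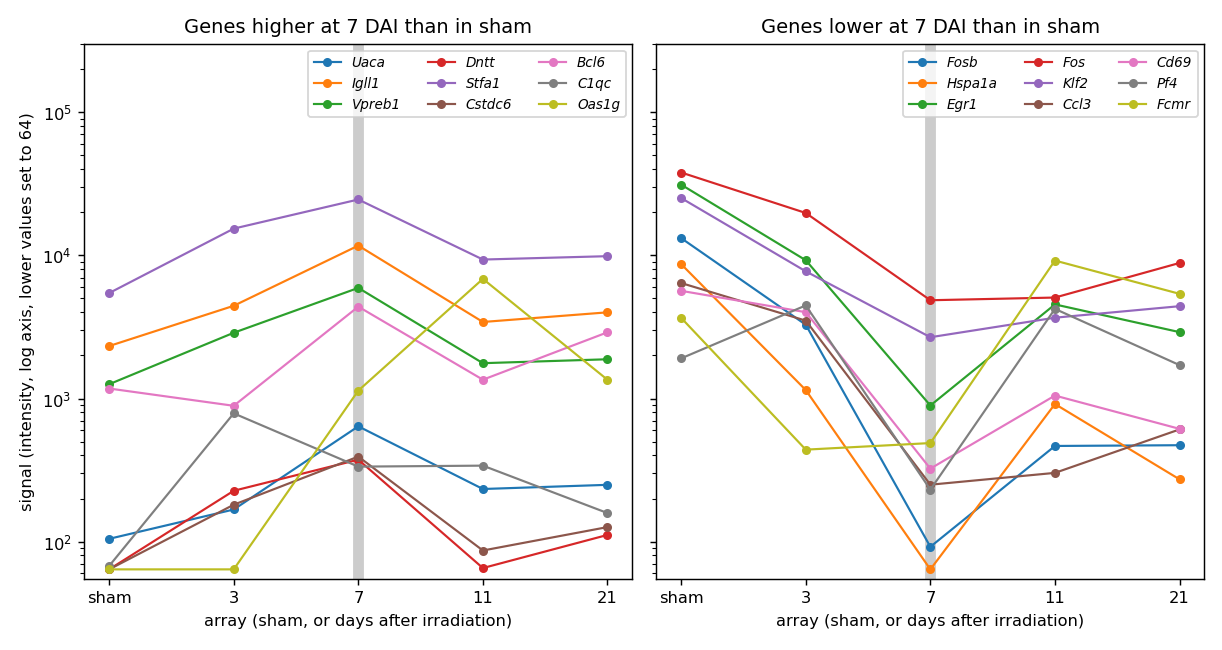
Signals of 9 genes that were higher (left) and 9 that were lower (right) at 7 DAI than in sham marrow, on all 5 arrays in order of time, as intensity on a log axis with values under 64 set to 64. Each point is 1 array and the grey band marks 7 DAI. Igll1, Vpreb1, Dntt, Stfa1, Cstdc6, Bcl6 and Uaca had their highest signal at 7 DAI, and Fosb, Hspa1a, Egr1 and Pf4 lay more than 2-fold under every other array there.

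The B lineage split by stage. Of 15 measured precursor genes 4 were higher and 1 lower (median 0.39), whereas of 21 measured genes of mature B cells none was higher and 13 were lower (median -1.23), against 3.4% of all genes. Over the 12 precursor genes with both signals above the floor the median was 0.02, against 0.12 for all such genes. With the mean over probes it was 0.09, as for all genes. The mature median was -1.33 and -1.25 under the same 2 rules. The precursor list as a whole was thus near the level of all genes under these rules. Igll1 and Vpreb1 encode the surrogate light chain, which pairs with the heavy chain in precursor B cells before a light chain gene is rearranged. Igll1 was at 11704 at 7 DAI against 2326 in sham marrow (2.33) and Vpreb1 at 5927 at 7 DAI against 1258 in sham (2.24). Both signals were more than 2-fold above each of the other 4 arrays, on which Igll1 reached at most 4445. Dntt, the terminal transferase that adds bases at the joints of rearranged genes, was at 374 at 7 DAI against 47.6 in sham, at least 5.84-fold higher, and Arpp21 at 348 at 7 DAI against 24.3 in sham, at least 5.44-fold higher. The recombinase gene Rag1 was at 788 at 7 DAI against 741 in sham (0.09), the interleukin 7 receptor gene Il7r at 755 at 7 DAI against 576 in sham (0.39) and the lineage factor Ebf1 at 368 at 7 DAI against 244 in sham (0.59). Vpreb3, a relative of Vpreb1, did not share its ratio and was at 8611 at 7 DAI against 9405 in sham. The lower precursor gene was Sox4, at 612 at 7 DAI against 2079 in sham (-1.77).

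Among the genes of mature B cells, Fcmr, the Fc receptor for IgM, had the lowest ratio at 488 at 7 DAI against 3658 in sham marrow (-2.91). The inhibitory receptor genes Cd22 and Cd72 were at 90.4 at 7 DAI against 337 in sham (-1.90) and at 1844 at 7 DAI against 5570 in sham (-1.60). The receptor of the survival factor BAFF, Tnfrsf13c, was at 350 at 7 DAI against 1167 in sham (-1.74), and Cd40, which receives T cell help, at 317 at 7 DAI against 1056 in sham (-1.73). Fcer2a, the IgE receptor Cd23, was close to the floor at 68.0 at 7 DAI against 245 in sham (-1.85). Ms4a1, the defining marker CD20, was under the floor at 14.8 at 7 DAI and only at 99.1 in sham marrow, so its ratio is a bound of at least 1.55-fold lower. The summed signal of the 23 genes of this list on the array was 16617 at 7 DAI and 34075 in sham marrow. Of the 21 measured, only Cd55, which many leukocytes express, had a ratio above 0 (0.54). At 3, 11 and 21 DAI, over the same sham array, the list medians were -1.78, 0.45 and 0.22 for the mature genes and -0.62, 0.40 and 0.46 for the precursor genes. At 7 DAI the mature genes were thus low while Igll1, Vpreb1 and Dntt were at their highest of the 5 arrays. Of 7 genes of plasma cells 1 was lower, the transcription factor gene Irf4 at 721 at 7 DAI against 2229 in sham (-1.63), and none was higher. The chaperone gene Mzb1 of antibody-making cells was at 5766 at 7 DAI against 6520 in sham (-0.18).

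**Figure D3:**
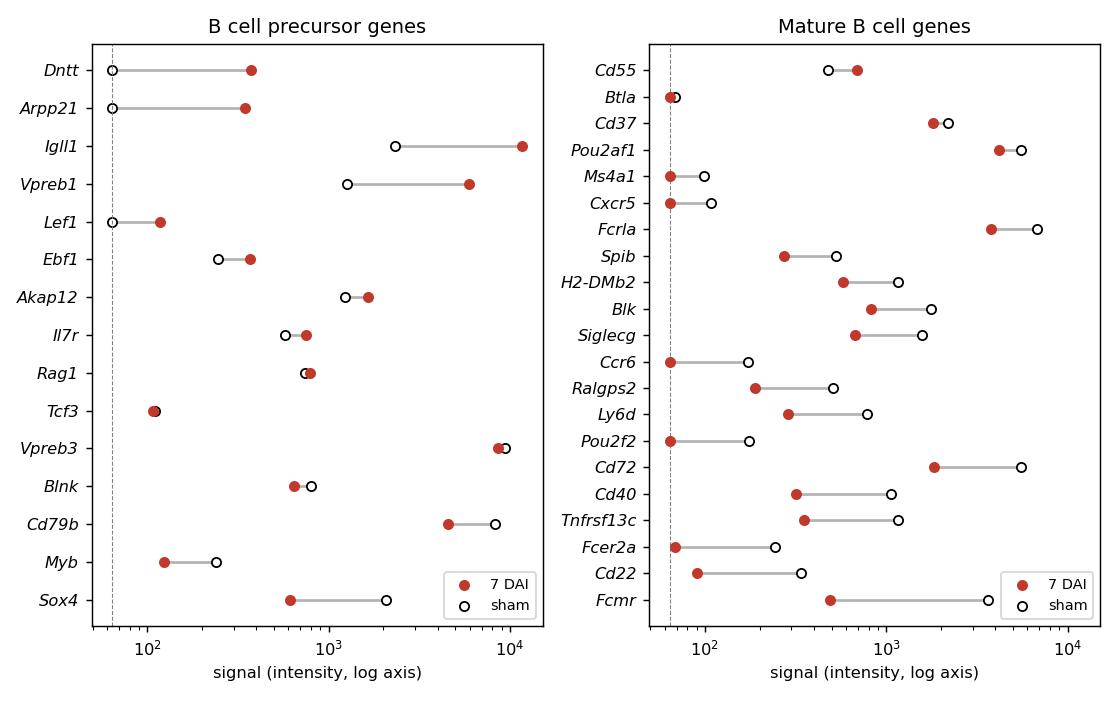
Signals of the 15 measured B cell precursor genes (left) and the 21 measured mature B cell genes (right) at 7 DAI (red) and in sham marrow (white), as intensity on a log axis with values under 64 set to 64, the dashed line. Genes are in order of their ratio. Dntt, Arpp21, Igll1 and Vpreb1 were at least 2-fold above sham, and 13 of the 21 mature genes at least 2-fold below it.

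MHC class II genes, which present antigen on B cells, dendritic cells and macrophages, were lower in 8 of 15, against 3.4% of all genes. None was higher, and the median was -1.02. The invariant chain gene Cd74 was at 2692 at 7 DAI against 8045 in sham marrow (-1.58), and the chain genes H2-Eb1 and H2-Ab1 at log2 ratios of -1.57 and -1.24. Their transactivator gene Ciita was at 46.5 at 7 DAI against 137 in sham, at least 2.14-fold lower. Its other measured probe gave a log2 ratio of -0.03, so its call depends on the probe. Cd74, H2-Eb1 and Ifi30, a thiol reductase of antigen processing, were each at least 2-fold lower at 7 DAI than on any other array. Class I presentation genes were all within 2-fold, 21 of 21, with a median of 0.08. The dendritic cell marker Siglech was at 866 at 7 DAI against 967 in sham (-0.16), and 1 of 12 genes of the dendritic cell list was lower, Ciita, with 1 higher, Pacsin1 (1.19).

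T cell genes differed in direction from member to member. Of 10 measured T cell genes 3 were lower and 1 higher, Thy1 (1.01). Ccr7, the receptor that guides T cells to lymph nodes, was at 44.8 at 7 DAI against 389 in sham marrow, at least 6.07-fold lower, and the adhesion gene Cd2 at 104 at 7 DAI against 340 in sham (-1.71). The receptor chain genes did not share a direction, with Cd3g at 99.2 at 7 DAI against 206 in sham (-1.06) and Cd3d at 8263 at 7 DAI against 5949 in sham (0.47), and the defining marker Cd3e was under the floor at 49.8 at 7 DAI against 90.9 in sham. Of 8 NK and cytotoxic genes 2 were lower, the perforin gene Prf1 at 5586 at 7 DAI against 18140 in sham (-1.70) and the chemokine gene Ccl5 at 720 at 7 DAI against 1673 in sham (-1.22), while Nkg7 was at 4183 at 7 DAI against 5371 in sham (-0.36).

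On the higher side, the most uniform group was the stefin cluster of chromosome 16, a row of related mouse genes for intracellular inhibitors of cysteine proteases that neutrophils express. RefSeq lists 11 of its genes that are also on the array, and all 8 with a ratio were higher, with log2 ratios between 1.11 and 2.62 and a median of 1.55. Stfa1 was at 24576 at 7 DAI against 5454 in sham marrow (2.17). Cstdc5 was at 7632 at 7 DAI against 2005 in sham (1.93), Stfa2 at 9164 at 7 DAI against 3161 in sham (1.54) and Cstdc4 at 19355 at 7 DAI against 8973 in sham (1.11). Cstdc6 was at 393 at 7 DAI against 55.3 in sham, at least 6.14-fold higher. In all 8 the 7 DAI signal was the highest of the 5 arrays. This follows in large part from their being higher than sham, as it held for 80.2% of the 338 higher genes. Stfa1 was at 15383, 9353 and 9874 on the arrays of 3, 11 and 21 DAI. The other 3 genes, Csta1, Csta2 and Cstdc3, were under the floor on both arrays. Genes of the cluster are near copies of each other, so a probe may read more than 1 of them and the 8 values are not independent. The cluster was put together after the values of some of its genes had been seen. Its 11 genes lie within chr16:36119946-36455392 (GRCm38.p6).

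The rest of the neutrophil genes gave smaller ratios. Of 35 measured genes of later neutrophils 7 were higher and 1 lower (median 0.30), against 4.09% and 3.4% of all genes. Of the 7, 4 were stefins. The others were Itgb2l, an integrin chain, at 3209 at 7 DAI against 1230 in sham marrow (1.38), Padi4, which converts histone arginines to citrulline, at 424 at 7 DAI against 192 in sham (1.14), and the chemokine receptor gene Cxcr2 at 4819 at 7 DAI against 2250 in sham (1.10). The collagenase gene Mmp8 was just inside 2-fold, at 2618 at 7 DAI against 1309 in sham (1.00). The 7 DAI signal was the highest of the 5 arrays in 26 of the 35 genes, against 24.2% of all genes. The lower gene was G0s2, an inhibitor of fat breakdown, at 1362 at 7 DAI against 5841 in sham (-2.10). In 11 genes, among them S100a8, Ngp and Camp, the sham signal already exceeded 20000, near the top of the range, as the highest signal of any probe was 51806 at 7 DAI and 52783 in sham marrow. Their ratios lay between -0.14 and 0.52. Without these 11 the median was 0.63. None of 17 genes of neutrophil progenitors was higher or lower, with a median of -0.13, and the myeloperoxidase gene Mpo was at 45281 at 7 DAI against 49487 in sham and the elastase gene Elane at 25131 at 7 DAI against 28703 in sham. The genes called higher thus lay in the list of the finished neutrophil and not in that of its progenitor. Most of them were stefins, whose values are not independent, and 27 of the 35 later genes were within 2-fold. Bcl6, a repressor found in neutrophils as in B cells, was at 4383 at 7 DAI against 1175 in sham (1.90).

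The macrophage genes split. Of 29 monocyte and macrophage genes 6 were higher and 2 lower, against 4.09% and 3.4% of all genes, and the median was 0.15. The complement genes C1qc and C1qb, made by resident macrophages, were at 334 at 7 DAI against 67.6 in sham marrow (2.31) and at 321 at 7 DAI against 40.3 in sham, at least 5.02-fold higher. Fcna, a lectin of macrophages, was at 614 at 7 DAI against 23.02 in sham, at least 9.60-fold higher, the receptor gene Axl that clears dying cells at 905 at 7 DAI against 247 in sham (1.87), the mannose receptor gene Mrc1 at 214 at 7 DAI against 72.0 in sham (1.57) and the iron exporter gene Slc40a1 at 11963 at 7 DAI against 4362 in sham (1.46). For C1qc, C1qb, Fcna and Axl the signal was higher still at 3 DAI, at 788, 785, 1681 and 2138, so the 7 DAI values were not their peak. The lower genes belong to monocytes and their activation, Ccr2 at 109 at 7 DAI against 222 in sham (-1.03) and Cd14 at 446 at 7 DAI against 1086 in sham (-1.28). The lineage markers Csf1r, at 1538 at 7 DAI against 1254 in sham (0.29), and Adgre1, at 355 at 7 DAI against 492 in sham (-0.47), were within 2-fold. Toll-like receptor genes were higher in 3 of 15, namely Tlr5 (1.79), the adaptor Tirap (1.18) and Tlr4 (1.07), and lower in 1, the coreceptor Cd14. The probes of Tirap reached down to 0.92 and those of Tlr4 to 0.42, so these 2 calls depend on the probe.

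Signalling genes for growth factors and cytokines were higher in a part of their members. Of 16 genes of Igf, Tgf-beta and Wnt signalling 5 were higher, against 4.09% of all genes, and none lower, with a median of 0.82. In 12 of the 16 the 7 DAI signal was the highest of the 5 arrays, against 24.2% of all genes. The highest of the 5 was Hdac4 (1.80), a histone deacetylase gene that the list also held. Irs2, an adaptor of insulin and Igf receptors, was at 624 at 7 DAI against 191 in sham marrow (1.71). The others were Tgfbr2 (1.11), Igf1r (1.06) and Smad3, just past 2-fold at 1449 at 7 DAI against 724 in sham. The other measured probes of Igf1r (0.91) and Smad3 (0.87) were inside 2-fold, so both calls depend on the probe. Of 17 cytokine feedback genes 4 were higher and 1 lower. Socs2 and Cish, inhibitors induced by STAT5, were at 536 at 7 DAI against 124 in sham (2.11) and at 242 at 7 DAI against 70.1 in sham (1.79), with higher signals at 3 DAI, 853 and 741. Among the genes with the highest ratios of all, Uaca, a regulator of the apoptosome, was at 639 at 7 DAI against 105 in sham (2.61) and the ADP receptor gene P2ry13 at 680 at 7 DAI against 135 in sham (2.34). Grb7, a signalling adaptor, was at 880 at 7 DAI against 36.0 in sham, at least 13.7-fold higher. Dab2ip, a Ras GTPase-activating protein, was at 1172 at 7 DAI against 254 in sham (2.21), the large transcription factor gene Zfhx3 at 1458 at 7 DAI against 349 in sham (2.06) and Syne1, a giant protein of the nuclear envelope, at 716 at 7 DAI against 174 in sham (2.05), though its other 4 measured probes gave between -0.23 and 1.02. Outside the lists on the lower side, Trps1, a GATA-type repressor, was at 131 at 7 DAI against 737 in sham (-2.49), the phosphate transporter gene Slc20a1 at 70.5 at 7 DAI against 283 in sham (-2.01) and Mid1, a ubiquitin ligase gene, at 59.4 at 7 DAI against 1044 in sham, at least 16.3-fold lower.

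Interferon-stimulated genes were near their sham level at 7 DAI. Of 37 measured 1 was higher and none lower, with a median of 0.29, while the medians at 3, 11 and 21 DAI over the same sham array were 0.65, 2.27 and 0.27. The 1 higher gene, Oas1g, had the highest calculated ratio of all 8256. Oas1g, a sensor of double-stranded RNA, was at 1135 at 7 DAI against 31.3 in sham marrow, at least 17.7-fold higher. It was at -12.6, 6853 and 1352 on the arrays of 3, 11 and 21 DAI, so it was under the floor on the sham and 3 DAI arrays and well above it on the other 3. A second probe gave 459.7 at 7 DAI and a value below 0 in sham marrow. Its relatives did not share this, with Oas2 at 462 at 7 DAI against 435 in sham (0.09) and Oas3 at 165 at 7 DAI against 132 in sham (0.32), and neither did other interferon targets such as Isg15 (0.12), Usp18 (-0.01) and Irf7 (-0.42).

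Of the replication-dependent histone genes, which package newly made DNA, 37 of 53 were lower, against 3.4% of all genes, and none was higher. Their median was -1.31. The families differed. All 12 H2B genes measured, all 3 H1 genes, 12 of 13 H4 genes and 7 of 9 H3 genes were lower, with medians of -1.44, -1.62, -1.51 and -1.28, against 2 of 15 H2A genes with a median of -0.09. H2bc21 was at 3644 at 7 DAI against 11032 in sham marrow (-1.60), H4c8 at 1759 at 7 DAI against 6075 in sham (-1.79) and H1f2 at 6536 at 7 DAI against 21263 in sham (-1.70). The probes of some genes differed, between -1.60 and -0.05 in H2bc21 and between -1.39 and 0.72 in H2bc6. They lay between -1.31 and -0.37 in H3c4 and between -1.42 and -0.10 in H3c7. The size of these ratios, and for H2bc6 the direction, thus depends on the probe. Other genes had probes that were all lower, such as H2bc12 (-1.51 to -1.45) and H4c6 (-1.65 to -1.36). H2ac10 was at 51125 at 7 DAI against 49939 in sham (0.03). Among genes with a sham signal over 20000, 4 of 13 were lower, against 33 of 40 of the others, and 8 of the 15 H2A genes lay over that signal. Within each signal class the families still differed. Over 20000, none of 8 H2A genes was lower against 4 of 5 of the other families, and at 20000 or less 2 of 7 H2A genes were lower against 31 of 33. Sham marrow had the highest of the 5 signals in 44 of the 53 genes, against 11.4% of all genes. The medians at 3, 11 and 21 DAI over the same sham array were -0.88, -1.16 and -0.83. Most of these mRNAs end in a stem-loop in place of a poly(A) tail, and the labelling began from an oligo(dT) primer. Genes of the same family are near copies and probes may be shared.

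The genes of cell division did not go the way of the histones. Of 44 genes of DNA replication and mitosis none was lower and 1 was higher, the cyclin gene Ccnf at 154 at 7 DAI against 49.8 in sham marrow, with a median of 0.04. The helicase genes Mcm5 and Mcm4 were at 8136 at 7 DAI against 9716 in sham (-0.26) and at 7869 at 7 DAI against 7611 in sham (0.05), Top2a at 3137 at 7 DAI against 2652 in sham (0.24) and the mitotic kinase gene Cdk1 at 2962 at 7 DAI against 2595 in sham (0.19). All 23 genes of DNA damage sensing and repair were within 2-fold, with a median of 0.18. Of 22 p53 targets 3 were lower, Plk2, Btg2 and Gadd45a, and 1 higher, Sesn2 (1.14), and the classic targets Cdkn1a and Mdm2 were at 355 at 7 DAI against 584 in sham (-0.72) and at 3280 at 7 DAI against 2029 in sham (0.69). The D-type cyclin gene Ccnd2 was at 903 at 7 DAI against 375 in sham (1.27), but another of its probes gave 100.7 at 7 DAI against 318.8 in sham (-1.66), so its direction depends on the probe.

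The red cell lineage was level. None of 34 erythroid genes was higher or lower, with a median of 0.04 and ratios between -0.99 and 0.69, and the medians at 3, 11 and 21 DAI over the same sham array were -0.70, 0.01 and -1.63. The haem synthesis gene Alas2 was at 11478 at 7 DAI against 8594 in sham marrow (0.42), the anion exchanger gene Slc4a1 at 34587 at 7 DAI against 26914 in sham (0.36) and Car1, a carbonic anhydrase of red cells, at 2791 at 7 DAI against 5531 in sham (-0.99). The globin genes Hba-a1, at 44288 at 7 DAI against 45600 in sham, and Hbb-bs, at 42768 at 7 DAI against 45294 in sham, were near the top of the signal range. Platelet genes were lower in 3 of 11, with a median of -0.53. Pf4, platelet factor 4, was at 231 at 7 DAI against 1908 in sham (-3.05), although it reached 4471, 4228 and 1712 at 3, 11 and 21 DAI. Ppbp was at 54.0 at 7 DAI against 138 in sham, with 3670, 613 and 591 on the same 3 arrays, and Treml1 at 9.79 at 7 DAI against 145 in sham, with 729, 375 and 159. For these 3 platelet genes the 7 DAI signal was more than 2-fold below that of any other array, while Cd9, which many cells express, was at 7225 at 7 DAI against 4810 in sham (0.59).

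Eosinophil genes lay on both sides. Of 15 genes of eosinophils, basophils and mast cells 3 were lower and 3 higher, against 3.4% and 4.09% of all genes. Prg2, the major basic protein of eosinophils, was at 2376 at 7 DAI against 5141 in sham marrow (-1.11), the eosinophil peroxidase gene Epx at 55.4 at 7 DAI against 186 in sham, at least 2.91-fold lower, and the ribonuclease gene Ear6 at 57.5 at 7 DAI against 317 in sham, at least 4.96-fold lower. The related Ear3 was at 7143 at 7 DAI against 3290 in sham (1.12) and Alox5, a lipoxygenase also of neutrophils, at 5670 at 7 DAI against 2585 in sham (1.13). The basophil protease gene Mcpt8 was at 2343 at 7 DAI against 3801 in sham (-0.70). Of 10 stem and progenitor genes 2 were higher, Runx1 at 191 at 7 DAI against 67.6 in sham, or 2.82-fold, and Egfl7 at the edge of the 2-fold size (1122 at 7 DAI against 560 in sham), and 1 lower, Meis1 at 85.2 at 7 DAI against 186 in sham (-1.12). The receptor gene Kit was at 1064 at 7 DAI against 719 in sham (0.57).

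Measured genes of the tissue around the marrow were few, and 7.5% of all genes passed 2-fold either way. Of 49 stromal and matrix genes, 32 were under the floor on both arrays. Of the 17 measured 1 was higher, the protease inhibitor gene Timp2 (1.36), and 1 lower, Angptl4 (-1.07). Their median was -0.16, against 1.80 at 3 DAI over the same sham array. None of 4 skeletal muscle genes and 8 endothelial genes passed 2-fold. Of 8 osteoclast genes 2 were higher and none lower. Of 5 osteoblast genes 1 was lower, as was 1 of 5 adipocyte genes, with none higher in these 2 lists. The osteoblast gene Bglap2 was under the floor at 20.7 at 7 DAI against 198 in sham marrow, at least 3.10-fold lower, and the osteoclast factor Nfatc1 was at 1956 at 7 DAI against 614 in sham (1.67), with its 5 measured probes between -0.39 and 1.90. Among genes of general cell function, the cytosolic ribosomal protein genes had a median of -0.28, with 50 of 55 below 0 but only 2 past 2-fold, Rps3a1 (-1.07) and Rpl22l1 (-1.05). Respiratory chain genes had a median of -0.12, with 1 of 78 lower, and none of 30 proteasome genes, 16 cholesterol synthesis genes and 22 antioxidant genes passed 2-fold. Of 16 glycolysis genes 1 was higher, Pfkp (1.07), but its other measured probe gave 0.31. None of 8 circadian clock genes passed 2-fold by its brightest probe. Per1 was at 603 at 7 DAI against 618 in sham and Dbp at 359 at 7 DAI against 334 in sham. The 3 probes of Per1 ranged between -2.45 and 0.26, so its call depends on the probe. Of 15 genes that glucocorticoids induce, 3 were lower, among them Tsc22d1 (-1.72), and 1 was higher, Pik3ip1, at 206 at 7 DAI against 57.7 in sham. The classic targets Fkbp5 (0.56) and Tsc22d3 (-0.32) were within 2-fold by their brightest probes. The other measured probe of Tsc22d3 gave -1.13, so its call depends on the probe as well.

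**Figure D4:**
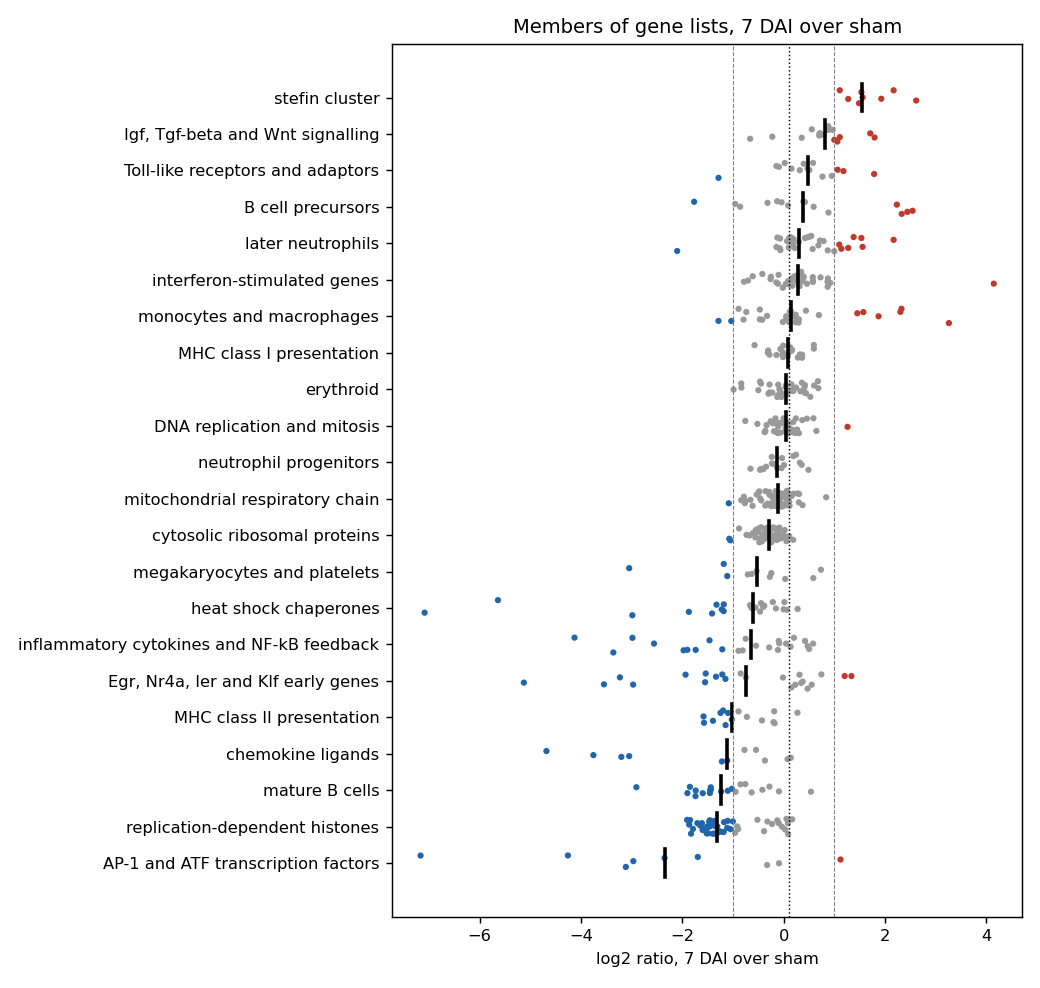
Log2 ratio of 7 DAI over sham (horizontal) for each measured member of 22 gene groups. Red, at least 2-fold higher. Blue, at least 2-fold lower. Grey, within 2-fold. Black bars are medians, dashed lines mark 2-fold and the dotted line is the median of all 8256 genes, 0.11. All 8 stefin genes lie at the higher end, and the erythroid genes all lie between the dashed lines.

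Higher and lower genes also differed in the genomic span they cover, a property that no list used. The span from RefSeq had a median of 37.0 kb in higher genes, 8.19 kb in lower genes and 21.0 kb in all genes with a ratio. Spans over 100 kb were held by 77 of 337 higher genes (22.8%), by 23 of 281 lower genes (8.19%) and by 9.92% of all. When all genes were put into 10 equal groups by span, the share of higher genes was 1.33% in the shortest group, up to 3.9 kb, and 9.45% in the longest, from 99.7 kb, against 4.09% overall. The share of lower genes was 12.1% in the shortest group and 2.79% in the longest. The median log2 ratio was -0.08 in the shortest group and 0.24 in the longest, and with the average of 3, 11 and 21 DAI as the baseline it was -0.15 and 0.20. At 3, 11 and 21 DAI over the same sham array, the shortest group had medians of 0.06, 0.00 and 0.00 and the longest of 0.02, -0.03 and 0.24. Histone genes made up 51 of the 825 genes of the shortest group, and without them 8.40% were lower and 1.42% higher. Of the 27 lower early genes 24 spanned under 10 kb, as did 54.8% of all lower genes and 27.5% of all genes with a ratio. The lower genes thus leaned to short genes and the higher genes to long ones.

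**Figure D5:**
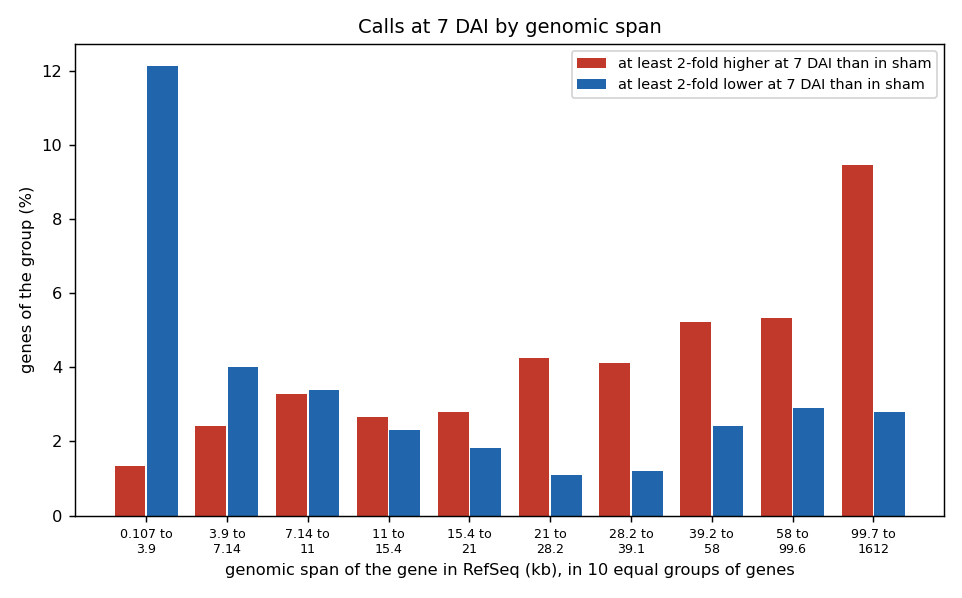
Share of genes (vertical, %) that were at least 2-fold higher (red) or lower (blue) at 7 DAI than in sham marrow, in 10 equal groups of genes by genomic span in RefSeq (horizontal, kb). Higher genes made up 1.33% of the shortest and 9.45% of the longest group, and lower genes 12.1% and 2.79%.

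Some genes set the 7 DAI array apart from all the others. On it 29 genes were at least 2-fold above and 25 at least 2-fold below each of the other 4 arrays. By the same rule the sham array had 61 above and 9 below, and the 21 DAI array 3 and 56. The counts were 158 and 62 at 3 DAI and 110 and 102 at 11 DAI. Besides Igll1, Vpreb1, Uaca and the stefin genes Csta3 and Cstdc6, the 29 included Amer2, a regulator of Wnt signalling, at 1295 at 7 DAI against 377 in sham marrow and 123, 164 and 539 at 3, 11 and 21 DAI. They also included the flagellin receptor gene Tlr5, at 287 at 7 DAI against 83.2 in sham, and the nucleotidase gene Nt5e, at 1450 at 7 DAI against 632 in sham marrow and 188, 172 and 665 on the other arrays. The 25 included Fosb, Hspa1a, Egr1, the platelet genes, Cd74, H2-Eb1, Ly6d, Meis1 and Tubb6, a tubulin gene, at 131 at 7 DAI against 368 in sham.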

How the data were processed

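RNA of whole marrow was hybridised to Illumina MouseWG-6 v2 BeadChips, 1 array per time. The authors extracted bead intensity values with GenomeStudio 2010.2, subtracted the background and scaled every array to the same average, and they deposited these intensities on a linear scale, with no replicate and no bead spread. Negative values remain, and their handling was not given in the sources used here. A deposited table without normalization has 10 columns that could not be assigned to samples and were not used. From the intensities, log2 ratios were computed here as described above with Python 3.11.15, pandas 2.3.3 and numpy 2.4.6, and figures were drawn with matplotlib 3.10.9. Of 45281 probes, 34885 had 1 gene symbol in the platform annotation. The members and the 52 gene lists were chosen with earlier results of these data known, and no list was tested. The rule for naming genes took the 30 highest and 30 lowest ratios with both signals above the floor, 10 bounds each way, and of each list the members past 2-fold and the 5 brightest. Ier2, Plk4, Rag1, Il7r, Ebf1, Ms4a1, Cd55, Siglech, Cd3e, Mmp8, Camp, Csf1r, Adgre1, Oas2, Oas3, Isg15, Usp18, Irf7, Top2a, Cdk1, Cdkn1a, Alas2, Car1, Mcpt8, Fkbp5, Cstdc4, Csta3, Nt5e and Tubb6 lie outside it and were added as known markers, relatives or examples after their values were seen. The calculations were tested on simulated data. Alternatives were other scalings, floors, a pseudocount, probe rules, sizes and a baseline of 3, 11 and 21 DAI.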

Additional observations from a re-analysis of the deposited data

Results flagged for a closer look

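Among the named genes, 21 had a 7 DAI ratio and a ratio at another time, both past 2-fold over the same sham array, with opposite signs, and these differences were not tested. Of B cell and antigen presentation genes lower at 7 DAI, Fcmr had a log2 ratio of -2.91 at 7 DAI and 1.33 at 11 DAI, Cd22 of -1.90 and 1.47, Cd40 of -1.73 and 1.49, Ly6d of -1.45 and 2.14, and Ifi30 of -1.19 and 1.10 at the same times. Cd2 was at -1.71 at 7 DAI and 1.05 at 11 DAI.

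Among platelet genes, Pf4 was at -3.05 at 7 DAI, 1.23 at 3 DAI and 1.15 at 11 DAI. Ppbp was at -1.11 at 7 DAI, a bound, with 4.73, 2.15 and 2.10 at 3, 11 and 21 DAI, and Treml1 at -1.18, also a bound, with 2.33 at 3 DAI and 1.37 at 11 DAI. Of the eosinophil genes, both with bounds at 7 DAI, Epx was at -1.54 at 7 DAI and 1.12 at 3 DAI, and Ear6 at -2.31 at 7 DAI and 1.28 at 11 DAI.

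Other genes lower at 7 DAI were Bglap2 at -1.63, a bound, with 1.84 at 3 DAI, Tubb6 at -1.49 with 1.79 at 3 DAI, Scd1 at -1.54 with 1.05 at 11 DAI, and H2ac6 at -1.17 with 1.11 at 21 DAI. Genes higher at 7 DAI were Amer2 at 1.78, with -1.62 at 3 DAI and -1.20 at 11 DAI, and Nt5e at 1.198, with -1.75 at 3 DAI and -1.88 at 11 DAI. Padi4 was at 1.14 at 7 DAI and -1.11 at 3 DAI. Timp2 was at 1.36 at 7 DAI and -1.56 at 11 DAI, Igf1r at 1.06 and -1.60, and Fosl2 at 1.12 and -1.04 at the same times.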

How the results depend on the processing

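No paired analysis was possible because each group had a single array. Scaling on the array median gave 225 higher and 362 lower genes and a median log2 ratio of all genes of -0.01, against 0.11 with the authors' scaling. A size of 1.5-fold gave 1256 higher and 681 lower, and 3-fold gave 50 and 97. Probes in place of genes gave 487 higher and 459 lower of 12383 probes, a larger total than the 8256 genes. With the average of 3, 11 and 21 DAI as baseline, the list medians were -0.83 for mature B cells, -0.62 for AP-1, -0.64 for chemokine ligands, -0.30 for Gadd45 and Polo-like kinases, -0.78 for MHC class II and -0.30 for histones, all then inside 2-fold, and -1.18 for platelet genes, then past it. The chemokine ligand median was also inside 2-fold with a lower floor (32, -0.89), with a doubled floor (-0.88), with a pseudocount of 50 (-0.86) or with both signals above the floor (-0.99). The MHC class II median was so with the doubled floor (-0.89), the pseudocount (-0.95) and the mean over probes (-0.89).

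With that irradiated baseline, 21 named genes past 2-fold changed sign. Genes lower against sham but above the baseline were Hcar2 (0.31), Ppp1r15a (0.091), G0s2 (0.24), Klf6 (0.51), Rhob (0.074), Trib1 (0.67), Zfp36 (0.048), Btg2 (0.048), Dusp1 (0.44), Gadd45a (0.82), H2bc15 (0.0068) and H2bc4 (0.55). Genes higher against sham but below the baseline were Cish (-0.19), C1qc (-0.061), C1qb (-0.35), Fcna (-0.043), Thy1 (-0.95), Csf2rb2 (-0.43), Ctsk (-1.50), Ccnd2 (-0.069) and Pfkp (-0.64). The cause was not tested. The single sham array enters every ratio, and no error can be set on any value. Signals near the floor of 64 and above 20000 limit what a ratio can show.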
